A study of Mus musculus with 3 samples.

Results

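10 genes of the tumour necrosis factor (TNF) receptor superfamily and its ligands that are known from lymphocytes were followed in embryonic stem (ES) cells, B cells and T cells of the mouse. They are the receptor genes Tnfrsf13b, Tnfrsf13c, Tnfrsf4, Tnfrsf9, Tnfrsf18, Tnfrsf1b, Cd27 and Cd40 and the ligand genes Cd40lg and Ltb. The members were chosen by symbol, and all probe sets annotated to 1 of these symbols and to no other gene were taken. This gave 15 of 45037 probe sets, and the 10 genes stood among 18193 genes with a probe set of their own. Cd40 and Tnfrsf9 had 3 probe sets each, Tnfrsf1b had 2 and each of the other 7 genes had 1.

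Each population was measured on 1 microarray of total RNA. The ES cells came from line B6N-22, which is of C57BL/6 background, kept with leukemia inhibitory factor (LIF) on mouse embryonic fibroblasts that had been stopped from dividing with mitomycin C. B220 B cells and CD4 T cells were taken from spleens of C57BL/6 mice aged 6 to 8 weeks and were purified on magnetic beads to more than 98%, per the labels. The labels name no genetic change and no drug treatment in any group, no stimulation of the lymphocytes is named, and RNA was taken directly after harvest. The sex and number of the mice, any pooling, and whether feeder cells were removed are not stated in the labels. With 1 array a population no test could be run, so every difference below is a description of these arrays, and their number limits its precision. In RNA from many cells, fewer cells of a type and less RNA per cell cannot be told apart.

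Receptors of this family bind trimeric ligands at the cell surface. Those followed here have no death domain and pass the signal to TRAF adaptor proteins, which switch on the canonical and the alternative NF-kappaB pathways and thereby survival, activation and costimulation. In lymphoid tissue the family is known for the survival of B cells through the BAFF receptors, for T cell help to B cells through CD40 and its ligand, for costimulation of T cells through CD27, OX40, 4-1BB and GITR, and for the build-up of lymphoid organs through lymphotoxin.

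Signals are on the linear scale of the deposited table. A detection level of 95.0 was used, the 50th percentile of the whole table. Dimmer values were set to that level for folds and log2 differences, so a fold against such a value is written as "at least". A gene counted as different where its brightest probe set differed by 4-fold or more and the higher signal exceeded 95.0, and it counted as measured where either signal did. Signals were compared between arrays for the same probe set, and not between genes. Of the 10 genes, 9 exceeded the level in T cells, 8 in B cells and 5 in ES cells, beside 56.8%, 57.8% and 60.3% of all genes in the same order. The only error that could be estimated is how far the 2 brightest probe sets of 1 gene lay apart. The SD of that gap was 0.56 on the log2 scale for T against B cells over 5329 genes, 1.09 for T against ES cells over 5792 genes and 1.08 for B against ES cells over 5816 genes. It covers probe effects and not the spread between mice or cultures.

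Markers were in place for each label. All 8 measured T cell markers were higher by 4-fold or more in T than in B cells, and all 9 measured B cell markers were lower by 4-fold or more. All 7 markers of pluripotent cells exceeded 95.0 in ES cells, and 0 of them did in either lymphocyte array. B cell markers were seen in T cells too, where 8 of 9 exceeded 95.0 and the summed signal was 6157 against 135861 in B cells. The ES cell array also held all 10 fibroblast markers above the detection level, with a summed signal of 66264 against 500 in T cells and 612 in B cells. The 12 macrophage markers had a summed signal of 69528 in T cells, 28791 in B cells and 4331 in ES cells. Of them 11, 12 and 8 exceeded 95.0 in that order, the lowest values were 94.5, 101.0 and 14.0, and none was listed at 0.

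**Figure D1:**
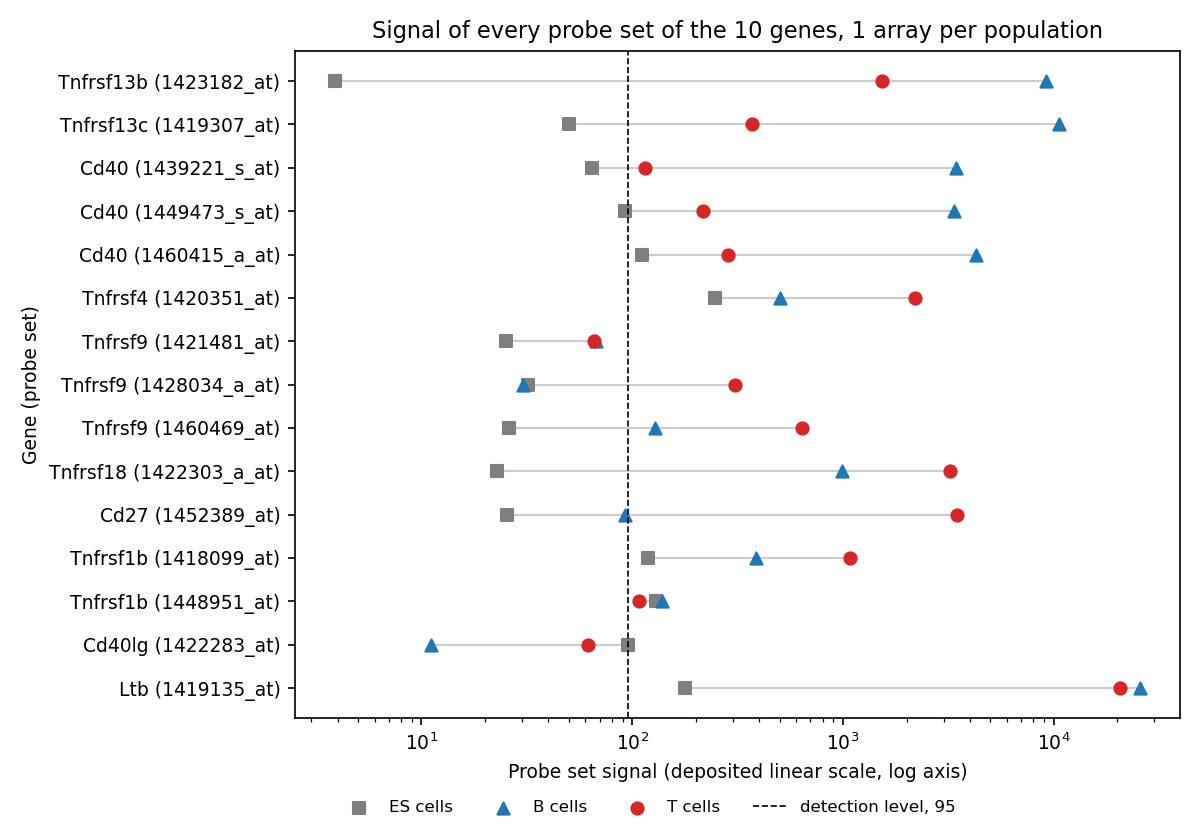
Signal of every probe set of the 10 genes (x axis, deposited linear scale drawn on a log axis) in ES cells (squares), B cells (triangles) and T cells (circles), with the detection level of 95.0 as a dashed line. Tnfrsf13b, Tnfrsf13c and Cd40 are brightest in B cells, Cd27, Tnfrsf4, Tnfrsf18 and the brightest probe sets of Tnfrsf9 and Tnfrsf1b in T cells, and Ltb lies far above ES cells in both lymphocyte arrays.

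The receptors that B cells use for survival signals and for T cell help were brightest in B cells. Tnfrsf13c, which encodes the BAFF receptor needed for the survival of mature B cells, Tnfrsf13b, which encodes TACI, a second receptor for BAFF that also binds APRIL, and Cd40, the receptor for CD40 ligand on antigen-presenting cells, were each higher by 4-fold or more in B cells than in both other populations. That count of 3 of 10 stands beside 1.31% of the 12776 genes above the detection level in any array. The members were chosen by name as lymphocyte genes with results of these arrays known, so the count is a description.

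Tnfrsf13c gave a signal of 10526.7 in B cells, 371.9 in T cells and 50.1 in ES cells. B cells were far above T cells, and ES cells were below the detection level. The signal was 28.3-fold lower in T than in B cells, and it was at least 111-fold higher in B than in ES cells. In T cells it was at least 3.91-fold higher than in ES cells, just short of the 4-fold limit.

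Tnfrsf13b gave 9211.0 in B cells, 1534.2 in T cells and 3.9 in ES cells. T cells were thus between the other arrays and well above the detection level, while ES cells were near the bottom of the scale. The difference was 6.00-fold between B cells and T cells, at least 97.0-fold between B cells and ES cells and at least 16.1-fold between T cells and ES cells. Tnfrsf13b was therefore counted among the genes lower by 4-fold or more in ES cells than in both lymphocyte arrays as well.

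Cd40 was read by 3 probe sets that gave the same order of the arrays. Probe set 1460415_a_at had 4265.9 in B cells, 283.8 in T cells and 111.8 in ES cells. Probe set 1449473_s_at had 3371.7, 216.2 and 92.6 in the same order, and probe set 1439221_s_at had 3450.9, 115.2 and 64.3. The B cell signal was 15.0-fold, 15.6-fold and 30.0-fold above that of T cells by the 3 probe sets in turn. Against ES cells it was 38.2-fold, at least 35.5-fold and at least 36.3-fold higher. T cells were 2.54-fold above ES cells by the first probe set, a log2 difference of 1.34, and at least 1.21-fold by the third.

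The T cell array held a low level of B cell markers too, and it is given beside these genes. Over the 8 B cell markers above the detection level in both lymphocyte arrays, the T cell signal was between 2.61% and 6.69% of the B cell signal, with a median of 3.92%, and for Pax5, below the level in T cells, it was at most 16.3%. It was 3.53% for Tnfrsf13c and 6.65% for Cd40, both in the range of these 8 markers, and 16.7% for Tnfrsf13b, above all 8. Plasma cell markers had larger shares, from 9.37% for Mzb1 to 301% for Prdm1 over 5 genes, with 74.2% for Jchain, the joining chain of secreted antibodies, at 9641.7 in T cells and 13002.2 in B cells. The part of B cells, plasma cells or other cells in the T cell signal of these receptors was not tested.

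The sequences before the annotated starts of both BAFF receptor genes are shown because these genes were brightest in the same array; they are the 250 bases upstream of each start in RefSeq, build GRCm38.p6, written 5′ to 3′ on the gene's strand with matches to the searched motifs in capitals.
Tnfrsf13b, chr11:61126505-61126754, plus strand: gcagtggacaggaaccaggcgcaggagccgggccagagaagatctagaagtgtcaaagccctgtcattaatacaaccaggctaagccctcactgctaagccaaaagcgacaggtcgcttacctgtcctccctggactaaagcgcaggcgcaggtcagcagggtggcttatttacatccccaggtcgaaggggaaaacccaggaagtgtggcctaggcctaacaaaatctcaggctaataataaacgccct
Tnfrsf13c, chr15:82224381-82224630, minus strand: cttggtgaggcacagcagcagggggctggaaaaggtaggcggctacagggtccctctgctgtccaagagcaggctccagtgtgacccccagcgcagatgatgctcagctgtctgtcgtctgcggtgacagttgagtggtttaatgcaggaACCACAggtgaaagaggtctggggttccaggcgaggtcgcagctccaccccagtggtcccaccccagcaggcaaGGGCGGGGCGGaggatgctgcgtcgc
Both strands were searched for TATAAA, the RUNX core TGTGGT, the inner EBF letters CCCNNGGG, the GC box GGGCGG, the ETS core CCGGAA and the kappaB motif bound by NF-kappaB. In the Tnfrsf13c window the capitals mark a RUNX core, 100 to 95 bases before the start, and a pair of GC boxes between 26 and 16 bases before it that share 1 base. The Tnfrsf13b window held 0 of the 6 motifs. Among 32851 RefSeq windows of this length, 14.0% held the RUNX core and 32.7% a GC box. CG dinucleotides numbered 8 for Tnfrsf13b and 10 for Tnfrsf13c, against a median of 6 over all windows. These are matches of letters, and binding was not measured.

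By their brightest probe sets, the costimulatory receptors of T cells had their highest signal in T cells, to very different extents. Cd27, whose product binds CD70 and supports T cell survival and memory, Tnfrsf4, which encodes the costimulatory receptor OX40, and Tnfrsf9, which encodes 4-1BB, were each higher by 4-fold or more in T cells than in both other populations. That is 3 of 10 members beside 1.45% of the genes above the detection level in any array. Tnfrsf18, which encodes GITR, known for its high level on regulatory T cells, was also brightest in T cells but stayed below 4-fold against B cells.

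Cd27 gave 3466.7 in T cells, 92.2 in B cells and 25.5 in ES cells. Only the T cell array was above the detection level, although the B cell signal came close to it. The T cell signal of Cd27 exceeded each of the others by at least 36.5-fold. That bound follows the detection level, and on the log2 scale it went from 5.19 to 3.83 when the level was raised to the 65th percentile. Of the members it had the greatest difference in favour of T cells.

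Tnfrsf4 gave 2187.8 in T cells, 503.4 in B cells and 246.2 in ES cells, all 3 above the detection level. It was 4.35-fold higher in T than in B cells and 8.89-fold higher than in ES cells. The 2.04-fold difference between B cells and ES cells, a log2 difference of 1.03, was smaller than the SD between probe sets of 1.08, so the order of those arrays is not settled.

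Tnfrsf18 gave 3219.2 in T cells, 987.9 in B cells and 22.9 in ES cells. Both lymphocyte arrays were above the detection level and the ES cell array was not. The T cell signal was 3.26-fold that of B cells and at least 33.9-fold that of ES cells, and the B cell signal was at least 10.4-fold that of ES cells. In the RefSeq annotation Tnfrsf18 is the next protein-coding gene after Tnfrsf4 on chromosome 4.

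The 3 probe sets of Tnfrsf9 did not give the same picture. Probe set 1460469_at had 635.9 in T cells, 128.2 in B cells and 25.9 in ES cells, which is 4.96-fold higher in T than in B cells and at least 6.69-fold higher than in ES cells. Probe set 1428034_a_at had 306.6 in T cells, 30.3 in B cells and 32.0 in ES cells, so T cells exceeded each by at least 3.23-fold. By probe set 1421481_at the signals were 65.7, 67.5 and 25.3, and none was above the detection level. The count of Tnfrsf9 therefore rests on 1 of its 3 probe sets. With the mean of all 3 the log2 difference between T cells and B cells was 1.33 in place of 2.31, and with the level raised to the 65th percentile it was 1.38. Both are below the 4-fold limit.

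Tnfrsf1b encodes TNFR2, the TNF receptor without a death domain that is known from regulatory T cells and from myeloid cells. Probe set 1418099_at gave 1078.8 in T cells, 385.1 in B cells and 119.4 in ES cells, a difference of 2.80-fold between T cells and B cells and of 9.04-fold between T cells and ES cells. Probe set 1448951_at gave 107.8, 139.0 and 129.7 in the same order of arrays, all within 1.29-fold of each other. The annotation gives both probe sets the same transcript accession, yet their log2 differences between T and B cells were 1.49 and -0.37, further apart than the SD of 0.56 over genes. With their mean, Tnfrsf1b was no longer counted as higher in T than in ES cells.

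The B cell signal as a share of the T cell signal set Cd27 apart from the rest of these receptors. By the brightest probe sets it was at most 2.74% for Cd27, 20.2% for Tnfrsf9, 23.0% for Tnfrsf4, 30.7% for Tnfrsf18 and 35.7% for Tnfrsf1b. The order of the rest is not settled, as neighbours in it lay closer on the log2 scale than the SD of 0.56 between probe sets. Probe set 1428034_a_at of Tnfrsf9 gave at most 31.0%, and 1448951_at of Tnfrsf1b gave 129%. Over the 6 T cell markers above the detection level in both arrays the share ran from 1.01% to 2.12%. For the other 2, below the level in B cells, it was at most 11.4%. Of the 6 regulatory T cell markers, Ctla4 had 4.71% and Icos 2.43%, and the other 4 gave upper bounds, the highest of them 32.0% for Foxp3. Over 11 macrophage markers above the level in both arrays it ran from 30.1% to 47.6% with a median of 40.6%, and for Itgam, below it in T cells, it was at least 106%. Over 6 measured dendritic cell markers it ran from 27.7% to 79.4% with a median of 36.0%. Over 3 neutrophil markers above the level in both arrays it ran from 44.3% for S100a8, at 8944.6 in T cells and 3966.1 in B cells, to 97.3% for Elane. Elane was near the detection level in all arrays, at 104.2 in T cells, 101.4 in B cells and 100.2 in ES cells. Of the other neutrophil markers, Camp exceeded the level only in T cells, at 115.4, Ltf only in B cells, at 124.5, and Mpo in no array. Regulatory T cell markers had a summed signal of 14550 in T cells, 496 in B cells and 278 in ES cells, and 6, 2 and 1 of the 6 were above the detection level. The part of regulatory T cells, macrophages, dendritic cells and neutrophils in the signals of Tnfrsf4, Tnfrsf9, Tnfrsf18 and Tnfrsf1b was not tested.

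**Figure D2:**
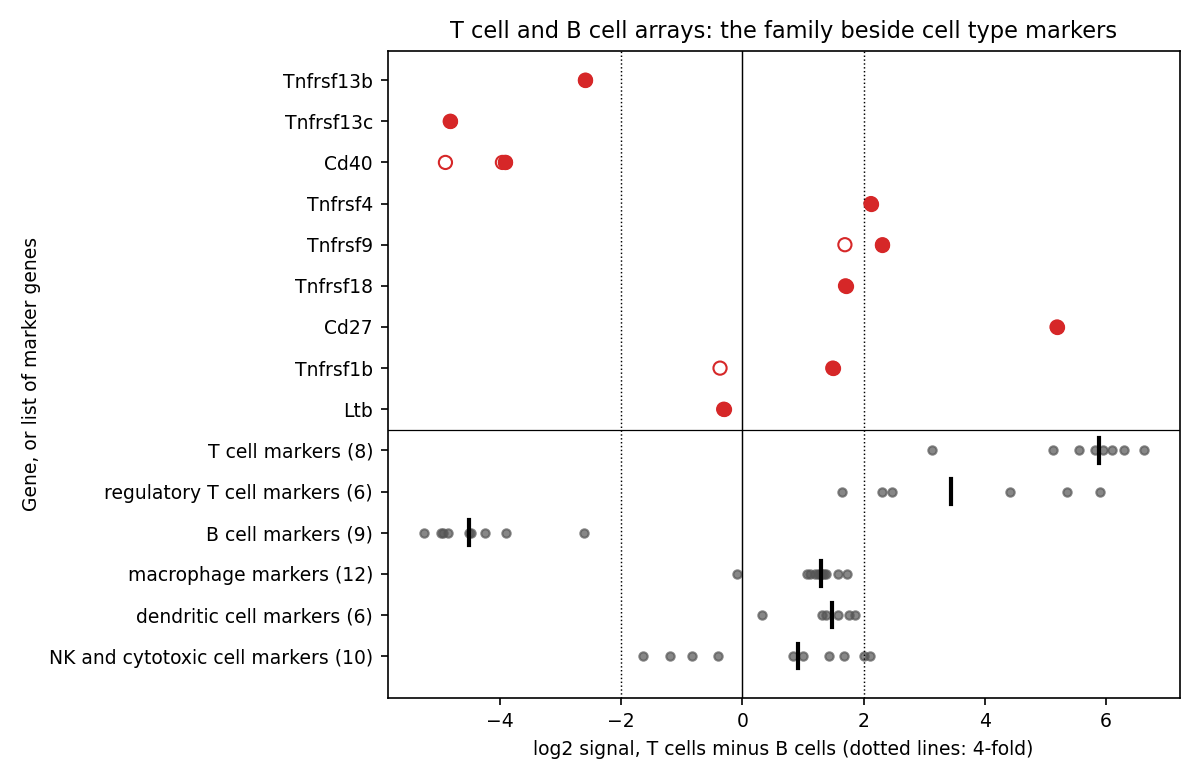
Difference in log2 signal between the T cell and the B cell array (x axis; dotted lines at 4-fold) for 9 of the genes, with the representative probe set filled and other measured probe sets open, above the measured genes of 6 marker lists (grey points) with their medians (black bars). Cd27 lies among the T cell markers, Tnfrsf13c and Cd40 lie among the B cell markers, and Tnfrsf18 and the filled point of Tnfrsf1b, at 1.70 and 1.49, lie where the ranges of the macrophage, dendritic and cytotoxic cell markers overlap. Tnfrsf18, Tnfrsf4, Tnfrsf9 and Cd27 also lie within the range of the regulatory T cell markers, from 1.65 to 5.9. The open point of Tnfrsf1b, at -0.37, lies below the macrophage range.

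The windows before the starts of Tnfrsf4, Tnfrsf18 and Cd27 are shown because these genes were brightest in T cells and because the first pair are neighbours; source, length, strand and capitals are as for the BAFF receptor genes.
Tnfrsf4, chr4:156013445-156013694, plus strand: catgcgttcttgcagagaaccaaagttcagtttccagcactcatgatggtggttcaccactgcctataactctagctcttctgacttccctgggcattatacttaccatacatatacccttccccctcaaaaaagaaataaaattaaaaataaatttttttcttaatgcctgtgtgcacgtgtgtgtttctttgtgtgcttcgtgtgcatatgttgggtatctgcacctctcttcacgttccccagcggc
Tnfrsf18, chr4:156026072-156026321, plus strand: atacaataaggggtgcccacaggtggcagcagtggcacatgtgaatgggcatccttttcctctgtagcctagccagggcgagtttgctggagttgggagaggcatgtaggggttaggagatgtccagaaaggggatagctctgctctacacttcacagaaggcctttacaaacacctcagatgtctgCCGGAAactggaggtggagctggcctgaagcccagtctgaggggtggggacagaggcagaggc
Cd27, chr6:125237028-125237277, minus strand: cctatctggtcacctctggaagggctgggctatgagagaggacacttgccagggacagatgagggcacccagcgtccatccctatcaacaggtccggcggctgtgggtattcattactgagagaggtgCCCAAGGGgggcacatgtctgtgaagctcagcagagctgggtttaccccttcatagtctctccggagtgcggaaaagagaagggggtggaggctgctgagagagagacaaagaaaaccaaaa
The capitals in the Tnfrsf18 window are an ETS core, 63 to 58 bases before the start, and those in the Cd27 window are the inner EBF letters, 122 to 115 bases before it. The Tnfrsf4 window held 0 of the 6 motifs. An ETS core was found in 12.0% and the EBF letters in 11.8% of all windows. CG dinucleotides numbered 5 for Tnfrsf4, 2 for Tnfrsf18 and 5 for Cd27. Tnfrsf4, Tnfrsf18, Tnfrsf9 and Tnfrsf1b, which make 4 of the 8 members with an entry, all lie on chromosome 4.

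The ligand gene Ltb, which encodes lymphotoxin beta, the subunit that anchors lymphotoxin to the membrane, was bright in both lymphocyte arrays. It gave 25488.3 in B cells, 20564.0 in T cells and 178.1 in ES cells. B cells and T cells differed by 1.24-fold, a log2 difference of -0.31 for T cells minus B cells, which is smaller than the SD of 0.56 between probe sets. Against ES cells Ltb was 143-fold higher in B cells and 115-fold higher in T cells. Both comparisons use the same ES cell array.

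The window before the start of Ltb is shown because it is the member bright in both lymphocyte arrays and holds the kappaB motif; source, length, strand and capitals are as before.
Ltb, chr17:35194257-35194506, plus strand: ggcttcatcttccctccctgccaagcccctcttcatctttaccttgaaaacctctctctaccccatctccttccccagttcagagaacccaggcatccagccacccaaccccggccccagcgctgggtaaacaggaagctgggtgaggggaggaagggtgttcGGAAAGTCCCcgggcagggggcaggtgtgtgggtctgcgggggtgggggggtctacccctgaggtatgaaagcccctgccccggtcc
The capitals are the kappaB motif, 87 to 78 bases before the start. The motif was found in 3.90% of all windows, and among the 9 windows of the members it was also found before 1 of the 2 listed starts of Tnfrsf9. Of the 9 windows, 3 held a GC box, 2 the ETS core, 1 the RUNX core, 1 the EBF letters and 0 TATAAA. The next protein-coding gene after Ltb is Tnf.

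The other ligand gene, Cd40lg, encodes CD40 ligand, which helper T cells present to B cells after activation. Its single probe set gave 61.5 in T cells, 11.1 in B cells and 95.2 in ES cells. It was thus below the detection level in both lymphocyte arrays and practically at it in ES cells, and no fold is given. Cd40lg was the 1 member not above the detection level in T cells.

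Set against ES cells, most of these genes were higher in lymphocytes. In T cells 7 of 10 measured members were higher by 4-fold or more and 0 lower, and the median difference was 3.16 on the log2 scale with bounds taken at their value, where 10.8% of 12325 measured genes were higher, 10.2% lower and the median was -0.11. In B cells 5 of 9 measured members were higher by 4-fold or more and 0 lower, with a median of 3.38, where 9.85% of 12463 genes were higher, 10.3% lower and the median was -0.07. Among all counted genes 51.5% were higher in T than in ES cells and 48.8% in B than in ES cells; these shares were 38.6% and 37.4% when the arrays were scaled to their 75th percentile, with the same member calls. The members not counted in T cells were Tnfrsf13c, Cd40 and Cd40lg, and those not counted in B cells were Tnfrsf4, Tnfrsf9, Tnfrsf1b and Cd40lg, while Cd27 was not above the detection level on either side. Tnfrsf13b, Tnfrsf18 and Ltb were lower by 4-fold or more in ES cells than in both lymphocyte arrays, which is 3 of 10. Of the genes above the detection level in any array, 7.11% were. None of the 10 was higher by 4-fold or more in ES cells than in both others, where 8.27% of those genes were. Differences from ES cells that rest on low ES cell signals follow the detection level. With the level raised to the 65th percentile, the log2 differences of B against ES cells were 5.43 for Tnfrsf13c in place of 6.79, 5.24 for Tnfrsf13b in place of 6.60, 4.12 for Cd40 in place of 5.25 and 2.01 for Tnfrsf18 in place of 3.38. Those of T against ES cells were 3.83 for Cd27 in place of 5.19, 3.72 for Tnfrsf18 in place of 5.08 and 2.65 for Tnfrsf13b in place of 4.01. The part of fibroblasts in the ES cell signals was not tested.

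Between T cells and B cells, 3 of 9 measured members were higher by 4-fold or more in T cells and 3 lower by 4-fold or more, where 2.49% of 11194 genes were higher and 1.85% lower. The first were Cd27, Tnfrsf9 and Tnfrsf4 and the second Tnfrsf13c, Cd40 and Tnfrsf13b. The differences ran from -4.82 for Tnfrsf13c to at least 5.19 for Cd27 on the log2 scale, so the median of 1.49 says little of the group, and it was 0.56 with the mean of all probe sets of each gene.

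**Figure D3:**
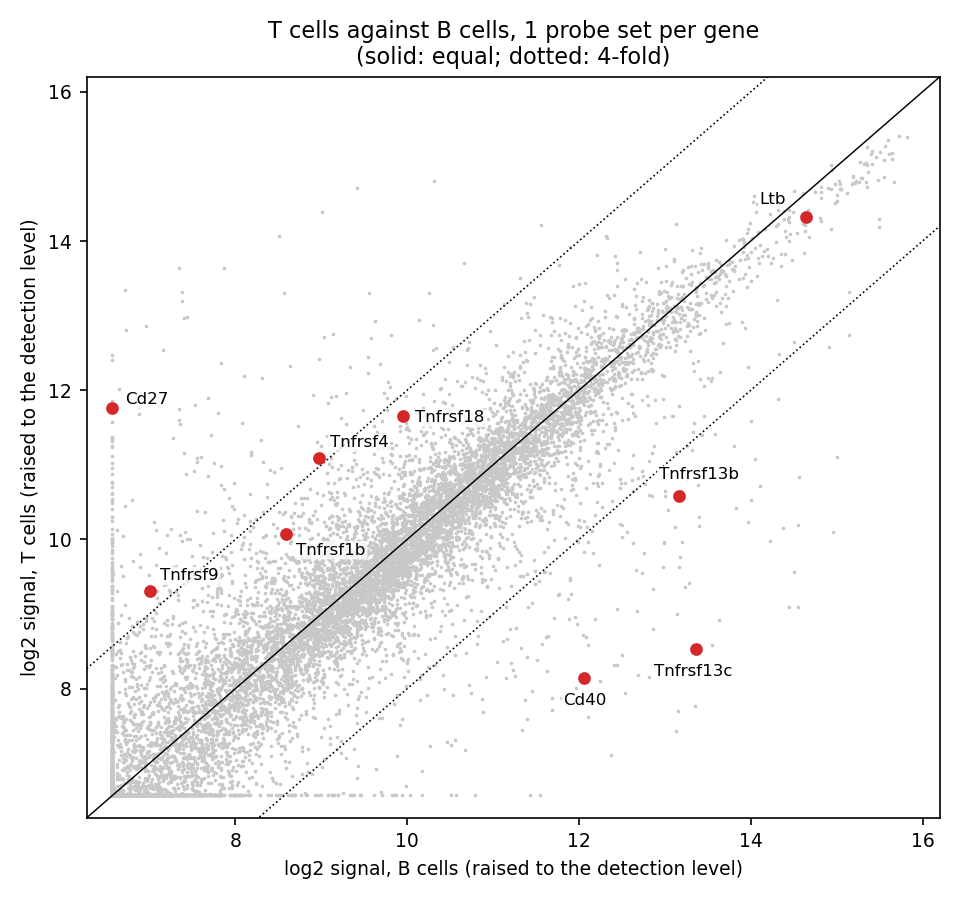
Log2 signal in B cells (x axis) and T cells (y axis), raised to the detection level, with 1 probe set for each of 11194 measured genes (grey) and the 9 measured members (red); the solid line marks equal signal and the dotted lines 4-fold. Tnfrsf13c, Cd40 and Tnfrsf13b lie below the lower dotted line, Cd27, Tnfrsf9 and Tnfrsf4 above the upper one, and Tnfrsf18, Tnfrsf1b and Ltb between them.

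The genes most like 2 of the members were sought by the distance between the log2 signals of the 3 arrays after each gene's mean was subtracted. For Cd27 the closest were Cd6, at a distance of 0.03, Izumo1r at 0.04 and Cd3e at 0.05, all below the detection level in both other arrays and with 3565.2, 3338.8 and 3332.4 in T cells. For Tnfrsf13c they were the complement receptor gene Cr2 at 0.14, Siglecg at 0.43 and the B cell kinase gene Blk at 0.47. Cd27 and its 3 closest genes were set to the detection level in both other arrays, so these distances reflect only T cell signals of like size. Over 3 arrays many genes can share a pattern, and the values below the detection level carry no order.

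Several partners of the members were near or below the detection level. They are named because they bind a member's product, outside the rule for named genes and with their values known. Tnfsf13b, the gene of the BAFF ligand itself, was read by 3 probe sets whose highest values were 59.1 in T cells, 91.4 in B cells and 72.0 in ES cells, none above the detection level. Cd70, the gene of the CD27 ligand, gave 35.7, 44.0 and 4.9 in the same order. Tnfsf4, the gene of the OX40 ligand, gave 110.7, 108.1 and 42.8, with both lymphocyte arrays just above the level. Tnfsf9, the gene of the 4-1BB ligand, was brightest in ES cells, with 281.7 there against 128.6 in B cells and 96.6 in T cells. Ltbr, which encodes the receptor for the lymphotoxin heterotrimer, gave 152.1 in T cells, 133.9 in B cells and 188.9 in ES cells, all above the detection level and within 1.41-fold of each other.

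Lta, whose product pairs with that of Ltb, gave 1013.6 in B cells, 640.1 in T cells and 4.1 in ES cells. Tnf, which encodes a ligand of TNFR2, gave 380.8, 489.2 and 13.3. Both were higher by 4-fold or more in each lymphocyte array than in ES cells. Lta was 1.58-fold lower in T than in B cells and Tnf 1.28-fold higher.

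Most other receptors of the superfamily did not reach 4-fold in any comparison. Of 20 listed 19 had a probe set. Of 12 measured in T against ES cells 2 were higher by 4-fold or more and 2 lower, of 11 in B against ES cells 0 were higher and 2 lower, and of 9 in T against B cells 1 was higher and 0 lower, with medians of -0.38, -0.50 and 0.77. Of all measured genes, 10.8% were higher and 10.2% lower in T against ES cells. The shares were 9.85% and 10.3% in B against ES cells and 2.49% and 1.85% in T against B cells. Tnfrsf25, which encodes the death domain receptor DR3, gave 1560.5 in T cells and was not above the detection level in B cells or ES cells, and its T cell signal exceeded each of them by at least 16.4-fold. The death receptor gene Fas gave 876.4 in T cells, 229.1 in B cells and 77.7 in ES cells, at least 9.23-fold higher in T than in ES cells and 3.83-fold higher than in B cells. Tnfrsf12a, the gene of the TWEAK receptor Fn14, was brightest in ES cells at 3145.4, which was 8.71-fold above T cells and 14.9-fold above B cells, and Eda2r at 686.3 was at least 7.22-fold above each; the part of the fibroblasts seen in that array was not tested. Relt gave 608.2 in B cells and 616.7 in T cells against 168.6 in ES cells, 3.61-fold and 3.66-fold. Tnfrsf1a, the gene of the TNF receptor with a death domain, was 3.27-fold higher in T than in B cells. Of the receptor genes named here Tnfrsf12a had 2 probe sets, and only the brighter is given.

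More of the other ligands were counted as higher in T cells than as lower. Of 16 listed, 12 had a probe set, and of 9 measured in T against B cells, 5 were higher by 4-fold or more and 0 lower, with a median of 2.25. Of all measured genes, 2.49% were higher and 1.85% lower. Tnfsf11, which encodes RANKL, gave 1072.9 in T cells and 10.9 in B cells, at least 11.3-fold higher. Fasl was 7.79-fold, Tnfsf8, the CD30 ligand gene, 6.44-fold, Tnfsf10, which encodes TRAIL, 5.76-fold and Tnfsf14, which encodes LIGHT, at least 4.75-fold higher. The B cell signals of Fasl and Tnfsf8, at 95.8 and 98.8, were practically at the detection level. Folds against such values follow that level, and the counts of this list were not tried with a raised level. Tnfsf10 had 3 probe sets and Tnfsf11, Fasl and Tnfsf14 had 2 each, and only the brightest is given. Against ES cells 7 of 9 were higher by 4-fold or more in T cells, with a median of 2.74, and 2 of 8 in B cells, with a median of 0.12. Some of these ligands are also made by cytotoxic cells, whose 10 markers had summed signals of 10016 in T cells, 4984 in B cells and 256 in ES cells. The markers did not all go the same way. Gzma, Klre1, Ncr1 and Cd8a were lower in T than in B cells, with Gzma at 409.8 and 1279.4. The others were higher, and of them only Cd8b1, at 715.6 in T cells and 165.5 in B cells, reached 4-fold. The part of cytotoxic cells was not tested.

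Many signalling genes downstream of these receptors were brighter in both lymphocyte arrays than in ES cells. Of 17 measured TRAF adaptor and proximal genes, 8 passed 4-fold upwards in T cells and 11 in B cells, with 0 lower and medians of 2.00 and 2.38. Of 9 NF-kappaB factors, kinases and inhibitors, 4 passed it in T cells and 7 in B cells, with 0 lower and medians of 1.86 and 2.48. Some genes of these lists lay close to the 4-fold limit, and the list counts were not tried with other scaling or detection levels. Of all measured genes, 10.8% were higher and 10.2% lower in T cells, and 9.85% and 10.3% in B cells, with medians of -0.11 and -0.07. Between T cells and B cells 0 of either list reached 4-fold, with medians of 0.08 and -0.36. Few of all measured genes reached it either, with 2.49% higher and 1.85% lower in T cells. The adaptor gene Traf1 gave 2563.6 in T cells, 1196.5 in B cells and 67.9 in ES cells, and Traf5 gave 1227.9, 2151.3 and 121.6. Birc3, which encodes the ubiquitin ligase cIAP2, was 2.59-fold brighter in B than in T cells, while Tnfaip3, which encodes A20, the brake on NF-kappaB, was 3.57-fold brighter in T cells. Among the NF-kappaB genes, Nfkbie was 47.1-fold and Rel at least 10.9-fold higher in B than in ES cells, and in T cells they were 22.8-fold and at least 4.51-fold higher. Ikbkb was 10.1-fold higher in B than in ES cells and 9.39-fold in T cells, Nfkbia 5.57-fold and 5.14-fold, and Nfkb2, the factor of the alternative pathway, 6.47-fold and 3.62-fold. Ikbkb and Nfkbia had 5 probe sets each, and Traf1, Traf5, Birc3, Tnfaip3, Nfkbie and Nfkb2 had 2 each. Only the brightest is given.

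**Figure D4:**
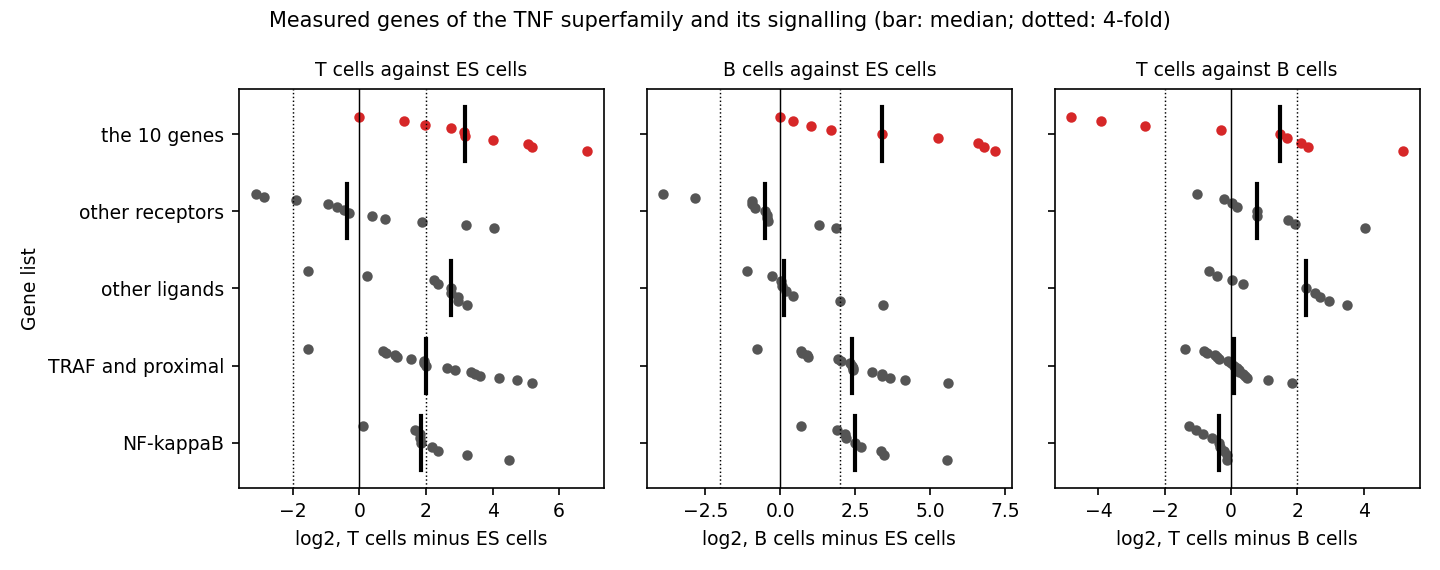
Differences in log2 signal (x axis) for measured genes of 5 lists in the 3 comparisons, with each list's median as a black bar, 4-fold as dotted lines and the members in red. Between T cells and B cells the members pass both 4-fold lines and the other ligands the upper one, whereas all 17 TRAF and proximal genes and all 9 NF-kappaB genes stay between them. Of all 11194 measured genes, not drawn, 10708 did not reach 4-fold in that comparison.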

How the data were processed

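The authors deposited 1 linear intensity per probe set and array, made with Affymetrix Expression Console per the submitters' processing notes; RNA was labelled with biotin for a 3' array, per the labels' protocols. Neither its version nor the summarization method is stated there. Trimmed by 2% at each end, the 3 columns had means between 497.3 and 497.8, as under scaling to a common mean, which hides a general change in mRNA per cell. From these values folds and log2 differences were computed with Python 3.11.15, numpy 2.4.6 and pandas 2.3.3 and tested on simulated data. Probe sets were named through GEO's platform annotation, and symbols were checked through Entrez IDs against RefSeq GRCm38.p6. Of 45037 probe sets 34945 had 1 symbol, and the 932 with several and 9160 without were left out of gene counts. For a gene with several probe sets, the one brightest on average stood for it. The members, gene lists and rules were chosen with earlier results of these data known. Named beside the members were up to 3 measured genes of each pathway list and comparison with the greatest difference, any such gene at 4-fold between T cells and B cells, and the 3 genes closest to the extreme member on each side. Listed genes without a probe set of their own, such as Traf3, Nfkb1 and Tnfsf18, were not analysed here. The alternatives tried were scaling to the 75th percentile, quantile normalization, a detection level at the 65th percentile, no floor with 16 added, the mean of all probe sets, agreement of every probe set, and 2-fold. They were applied to the members and to all genes, and not to the counts of the other lists.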

Additional observations from a re-analysis of the deposited data

How the results depend on the processing

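Quantile normalization and scaling to the 75th percentile changed the call of 0 of the 10 members in the 3 comparisons, and moved 0 of their 30 differences each by more than the spread between probe sets. Raising the level to the 65th percentile moved 12 of 30, all of them towards 0, leaving out the floor moved 10 and the mean of all probe sets 4, and 0 of the counted differences changed sign. Scaling to the 75th percentile moved the median of all genes from -0.11 to -0.42 in T against ES cells and from -0.07 to -0.37 in B against ES cells, with member medians of 2.79 and 3.25, and lowered the higher share of counted genes from 51.5% to 38.6% and from 48.8% to 37.4%. Without a floor, 1 member in place of 0, Cd40lg, was counted lower in B than in ES cells, Tnfrsf13c was counted higher in T than in ES cells, and the member median in B against ES cells was 4.69. Tnfrsf9 lost its counts in T against ES cells and against B cells with the level raised to the 65th percentile, with the mean of all probe sets and where all probe sets of a gene had to pass, and Tnfrsf1b lost its count against ES cells with the last 2. The member median in T against B cells was 0.56 with the mean of all probe sets. At 2-fold, 5 members were higher in T than in B cells, 5 highest in T cells and 7 lowest in ES cells. For the last 2 counts the share of all genes at 2-fold was not computed, so they cannot be set against it. Over all genes, 2-fold gave 2802 higher and 3041 lower in T against ES cells, 2635 and 3063 in B against ES cells, and 995 and 707 in T against B cells. Where all probe sets of a gene had to pass the counts were 770 and 664, 739 and 679, and 151 higher in T than in B cells. With the level raised to the 65th percentile 784 and 799 genes were lower in T cells and in B than in ES cells, and 166 were higher in T than in B cells. The single array per population limits every value, and signals near 95.0 have no order. The patterns over the 3 arrays and the median of all genes were added to the alternatives after the data were seen. No paired analysis was possible because each population has 1 array.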
